A study of Mus musculus with 4 samples.

Results

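Nuclear-encoded oxidative phosphorylation (OXPHOS) genes were followed through the immune cells of a mouse mammary tumour treated with ORIN1001, docetaxel or both. The members were chosen by symbol alone: all features whose name begins with Nduf, Sdha, Sdhb, Sdhc, Sdhd, Uqcr, Cox4i, Cox5, Cox6, Cox7, Cox8 or Atp5, without Cox6a2 and without names containing -ps. The rule found 96 of 32285 features and used no measured value. By complex, 36 members belong to complex I, 4 to complex II, 8 to complex III, 19 to complex IV, 17 to complex V, and 12 are assembly factors of complexes I and II. Ndufa4, named as a complex I gene, was placed with complex IV, where its protein is now known to sit.

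OXPHOS is the process by which the inner mitochondrial membrane turns the electrons of nutrients into ATP. Complexes I and II take electrons in from NADH and succinate, complex III passes them to cytochrome c, complex IV hands them to oxygen, and complex V, the ATP synthase, uses the proton gradient so built. Most subunits are encoded in the nucleus and a few in mitochondrial DNA. Neutrophils are known to hold few mitochondria and to depend mainly on glycolysis, whereas macrophages and activated lymphocytes use both routes.

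The tumour was 2153L, from a genetically engineered mouse (GEM) model, grown in the fat pad of the mammary gland in female mice of the Balbc strain. Its CD45+ cells, which are cells of blood origin, were sorted and profiled by droplet-based 3' single-cell RNA sequencing. Treatment lasted 8 days with vehicle, with ORIN1001 (150 mg/kg), with docetaxel (20 mg/kg), or with the 2 agents together at those same amounts. ORIN1001 inhibits the RNase of IRE1α, a sensor of endoplasmic reticulum stress, and docetaxel is a taxane that stabilises microtubules. Every group was a single library, and how many animals were pooled in it was not stated in the labels.

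The libraries held 8464 to 10362 barcodes and 64257802 to 86383509 UMIs (unique molecular identifiers, each counting 1 captured RNA molecule). Between 96 and 134 cell barcodes were shared by any pair of libraries. Of 33637 cells kept, 32357 (96.2%) were placed in a class by marker genes, here called gated classes, and 31999 of these lay in a cluster of the same name. Neutrophils numbered 5210, 5617, 4056 and 3285 in the vehicle, ORIN1001, docetaxel and combination libraries, macrophages 2191, 987, 1551 and 1418, and T cells 1013, 937, 1090 and 2326. The 9 neutrophil markers summed to between 36650 and 88952 UMIs per 1000000 (CPM) in the neutrophil class, the 10 macrophage markers to between 29053 and 33472 CPM in the macrophage class, and the 8 T cell markers to between 5623 and 7414 CPM in the T cell class. Levels below are given in the library order vehicle, ORIN1001, docetaxel, combination.

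Across gated classes, the summed members stood lowest in neutrophils in every library. The 96 members together took 9042, 7902, 10174 and 9201 CPM of the neutrophil UMIs. In macrophages they took 22678, 22588, 25070 and 24435 CPM. T cells lay in the same range, at 21872, 22227, 21700 and 23297 CPM. Conventional dendritic cells (DC, 20675 to 23886 CPM) and natural killer (NK) cells (22774 to 23789 CPM) overlapped both of these. Monocytes (20016 to 22008 CPM) overlapped T cells but lay below every macrophage library. Of these 6 classes, only neutrophils overlapped no other. Of the 92 members with at least 100 UMIs over these 6 classes, 39 had their highest mean CPM in macrophages, 23 in NK cells, 16 in T cells, 8 in conventional DCs, 6 in monocytes and 0 in neutrophils. Cox7b2 and Cox8c, paralogs of complex IV subunits with restricted tissue expression, had 0 UMIs, Cox8b, another such paralog, had 1, and Ndufa4l2, a paralog of Ndufa4, had 10.

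**Figure D1:**
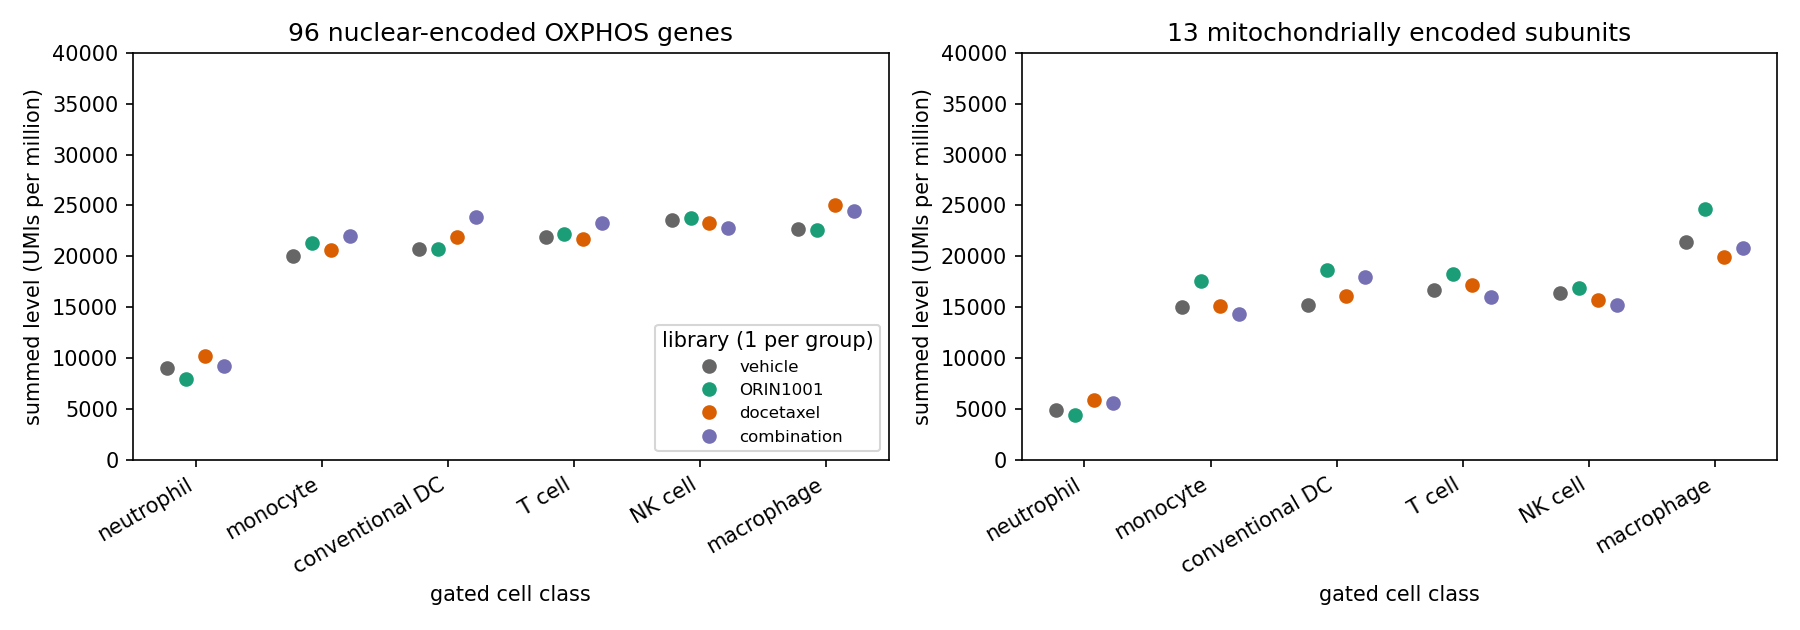
Summed level, in CPM, of the 96 nuclear-encoded members (left) and of the 13 subunits encoded in mitochondrial DNA (right) in 6 gated classes; each point is 1 library, with no error shown because each group had 1 library. The 4 neutrophil points, 7902 to 10174 for the members, lie below every point of the other classes in both panels.

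The gap held for each complex. Complex I members summed to 2487, 2128, 2728 and 2396 CPM in neutrophils and to 6427, 6334, 7029 and 6922 CPM in macrophages. Complex V members summed to 2627, 2267, 2990 and 2689 CPM in neutrophils and to 7319, 7302, 8247 and 7928 CPM in macrophages. Complex II, the link to the citric acid cycle, stood at 220 to 245 CPM in neutrophils and 528 to 644 CPM in macrophages. The 12 assembly factors were closest, at 165 to 241 CPM in neutrophils against 273 to 322 CPM in macrophages. For every complex the ranges of the 4 libraries did not overlap between the 2 classes.

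Gene by gene, the 4 libraries served as replicates of a class, with the library as a block, in edgeR's quasi-likelihood test over all genes with Benjamini-Hochberg adjustment. Macrophages had 81 of the 92 tested members higher and 3 lower than neutrophils at adjusted p under 0.05, with a median log2 fold change of 1.16. Of all genes tested, 44.4% were higher and 40.4% lower, with a median of 0.09. By complex, 33 of 36 complex I members, all 4 of complex II, all 8 of complex III, 13 of 15 tested of complex IV, 16 of 17 of complex V and 7 of 12 assembly factors were higher. These p-values measure how evenly the class difference held across 4 libraries that also differ in treatment, since the block takes up differences between whole libraries. With library size in place of TMM scaling, which moved the median of all genes to 0.54, 88 members were higher and 2 lower (53.5% and 31.0% of all genes).

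The catalytic core of complex I showed gaps of unequal size between macrophages and neutrophils. Ndufs3, a core subunit of its peripheral arm, had 125, 113, 143 and 143 CPM in macrophages and 33.0, 24.1, 37.7 and 33.3 CPM in neutrophils, a log2 fold change of 1.59 (SE 0.08, edgeR adjusted p = 2.26e-06). Ndufv1, which binds NADH, and its partner Ndufv2 were higher by 1.39 and 1.52. Ndufs8 was higher by 1.31, but Ndufs1, the largest core subunit, only by 0.52, and Ndufs7, which carries the last iron-sulfur cluster, by 0.38. Each core gene named here was higher in macrophages in 4 of 4 libraries.

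The widest gap among complex I members was that of Ndufc2, an accessory subunit of the membrane arm (mm10 chr7:97400003-97407802, plus strand). It had 357, 348, 376 and 386 CPM in macrophages and 21.2, 17.1, 27.4 and 24.9 CPM in neutrophils, a log2 fold change of 3.58 (SE 0.09, edgeR adjusted p = 7.45e-07). T cells lay between, at 132, 146, 141 and 149 CPM, lower than macrophages by a log2 fold change of -1.67 (edgeR adjusted p = 1.07e-06). The 3 classes did not overlap for this gene in any library.

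In complex II, Sdhc, a membrane anchor, was higher in macrophages than in neutrophils by a log2 fold change of 1.61, and Sdhb, the iron-sulfur subunit, by 0.99. Sdha, the flavoprotein that oxidises succinate, was higher by 0.45 and Sdhd, the other anchor, by 0.66, each past the edgeR threshold. The assembly factors Sdhaf1 and Sdhaf2, which serve the iron-sulfur and the flavin subunit, went the other way and were lower in macrophages by log2 fold changes of -1.36 (adjusted p = 0.000248) and -0.90 (adjusted p = 2.86e-05). In complex III, the Rieske protein Uqcrfs1 and the core proteins Uqcrc1 and Uqcrc2 were higher by 1.33, 1.41 and 1.44.

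Complex IV divided by subunit. Cox4i1, its ubiquitous regulatory subunit, had 1176, 1063, 1147 and 1089 CPM in macrophages and 358, 313, 405 and 369 CPM in neutrophils, a log2 fold change of 1.18, and Cox5a was higher by 1.77. Cox5b was higher by only 0.39, and Cox7a2 and Cox8a did not pass the test, with log2 fold changes of -0.03 (adjusted p = 0.71) and -0.14 (adjusted p = 0.17) that became 0.42 and 0.31 without TMM scaling. The hypoxia-linked isoform Cox4i2 (mm10 chr2:152754173-152765037, plus strand) had 14.6, 26.1, 9.60 and 8.08 CPM in macrophages against 7, 8, 3 and 8 UMIs in the 4 neutrophil sums. It is counted among the 13 called higher, but its fold change is not given, since it would rest on so few neutrophil UMIs. In T cells Cox4i2 had 0, 0, 1 and 1 UMIs.

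In the ATP synthase, the 3 genes Atp5g1, Atp5g2 and Atp5g3 encode the same mature c subunit of the rotating ring. They stood higher in macrophages than in neutrophils by log2 fold changes of 2.47, 2.65 and 2.16, against 1.46, 1.24 and 1.58 for Atp5a1, Atp5b and Atp5c1, the alpha, beta and gamma subunits of the catalytic head. Atp5g2 had 599, 566, 591 and 558 CPM in macrophages and 73.0, 50.7, 77.5 and 71.3 CPM in neutrophils. Ndufb9, an accessory complex I subunit, was called lower in macrophages (log2 -0.27, adjusted p = 0.0129), but its CPM was higher there in all 4 libraries and its fold change was 0.19 without TMM scaling.

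T cells had 67 of 91 tested members higher and 10 lower than neutrophils, with a median log2 fold change of 0.70, against 43.6% and 39.8% of all genes tested and a median of 0.08. Without TMM scaling, which moved the median of all genes to 0.88, 87 were higher and 0 lower by edgeR (60.9% and 24.6% of all genes), with 0 lower also at unadjusted p under 0.05. DESeq2 gave 59 higher and 10 lower. Ndufaf4, a complex I assembly factor, and Ndufa5, an accessory subunit, had log2 fold changes of 3.43 and 2.64. Cox8a, the smallest of the common complex IV subunits, was called lower in T cells by -0.55 (adjusted p = 0.002) with TMM scaling and was 0.25 without it. Against macrophages, T cells had 71 of 92 members lower and 4 higher with a median of -0.39 (37.1% and 37.3% of all genes), but 25 lower and 18 higher without TMM scaling (27.3% and 50.8% of all genes). Uqcrh, the hinge protein of complex III, was among the 4 that were higher, with 558, 566, 571 and 597 CPM in T cells and 382, 396, 340 and 344 CPM in macrophages (log2 0.35, adjusted p = 0.00528).

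**Figure D2:**
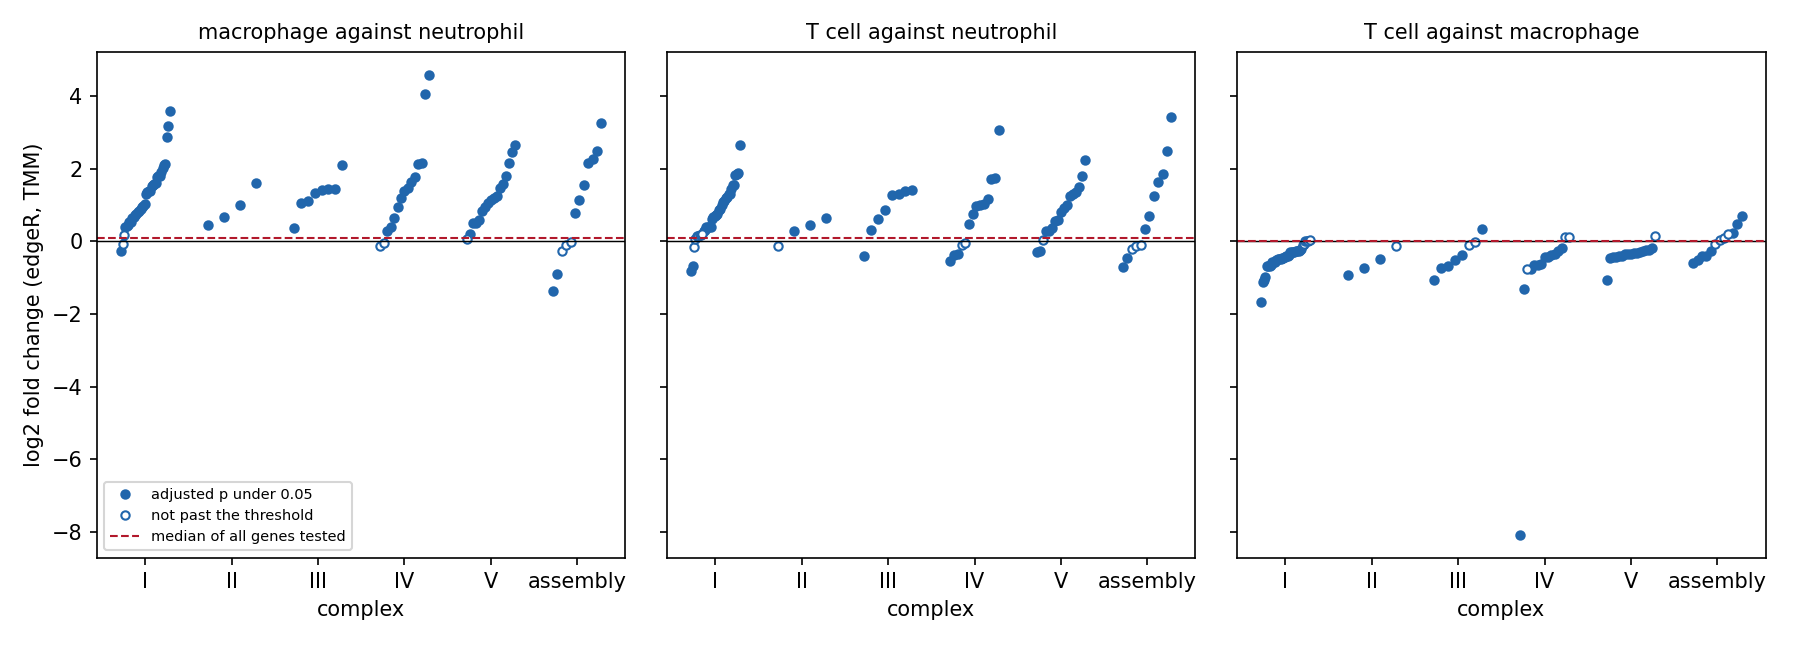
Log2 fold change of each tested member between gated classes, from edgeR with TMM scaling, grouped by complex; filled points are past an adjusted p of 0.05, open points are not, and the dashed line is the median of all genes tested. Most points lie above the line for macrophages and T cells against neutrophils (medians 1.16 and 0.70) and below it for T cells against macrophages (-0.39), and the lowest point at right is Cox4i2, whose fitted value rests on 0 or 1 UMI in each T cell sum.

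Some other mitochondrial lists behaved much as the members between macrophages and neutrophils, and others were divided. All 13 subunits encoded in mitochondrial DNA were higher in macrophages, with a median log2 fold change of 1.59, as were 14 of 16 citric acid cycle enzymes (1 lower). Of 17 glycolysis enzymes, 2 were higher and 9 lower. The gap was not limited to mitochondria: 82 of 84 cytosolic ribosomal protein genes (median 2.01) and 14 of 14 core proteasome genes (median 1.04) were also higher in macrophages.

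Cytochrome c (Cycs), which carries electrons from complex III to IV, had 258, 241, 397 and 390 CPM in macrophages and 194, 171, 157 and 126 CPM in neutrophils. Its 2 docetaxel-containing libraries stood high in macrophages and low in neutrophils. Between these classes Cycs did not pass edgeR's test (log2 0.51, adjusted p = 0.0920). Atpif1, the inhibitor of ATP synthase, had 357, 318, 350 and 319 CPM in macrophages, 77.0, 76.2, 75.7 and 69.1 CPM in neutrophils and 122, 150, 138 and 150 CPM in T cells, with no overlap between the classes. Ppargc1a, a coactivator of mitochondrial biogenesis, had at most 3 UMIs in any library of these 3 classes, so its changes were not measurable at this depth.

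Differences between the drug groups rest on 1 library each, so no test was possible and no gene is called changed. Brackets after a ratio hold its 95% interval, for counting error alone. A member with at least 100 UMIs in the libraries compared is counted as higher where its CPM was at least 25% above, and as lower where it was at least 20% below, which is the same fold. In neutrophils the summed members were lower with ORIN1001 than with vehicle (7902 against 9042 CPM, log2 ratio -0.19, -0.20 to -0.18). Of 85 members, 32 were lower and 1 higher by this measure, against 19.2% and 7.71% of all genes, and the median log2 ratio was -0.26 against -0.09 for all genes. With median-of-ratios scaling, which sets the median of all genes to 0, 15 were lower (12.8% of all genes). Below 0 were 78 of the 85. Cytosolic ribosomal protein genes were lower as well, 40 of 84 with a median of -0.31, and so were 6 of 15 citric acid cycle enzymes.

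Of complex V, 9 of 17 members were among these lower genes, of the assembly factors 4 of 8 and of complex I 13 of 36. Atp5g1 (mm10 chr11:96068852-96075670, minus strand), of the c ring, had 61.5, 35.6, 81.6 and 71.5 CPM in the 4 neutrophil sums, a log2 ratio of -0.79 (-0.92 to -0.65) for ORIN1001. Atp5o, of the stalk that holds the catalytic head, had 107, 68.2, 111 and 117 CPM (-0.65, -0.75 to -0.55). The other c ring genes and the 3 head genes were also lowest with ORIN1001: Atp5b, the catalytic beta subunit, had 216, 171, 245 and 221 CPM, and Atp5a1, the alpha subunit, 123, 91.3, 145 and 125 CPM. For these genes the ORIN1001 library was the lowest of the 4, and the combination library stood closer to vehicle than ORIN1001 did.

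With docetaxel the summed members in neutrophils were higher than with vehicle (10174 against 9042 CPM, log2 0.17, 0.16 to 0.18). Of 85 members, 13 were higher and 2 lower, against 23.3% and 9.16% of all genes (3 higher with median-of-ratios scaling, against 14.8%), so the share past this fold was below that of all genes, while the median was 0.19 against 0.12 and 72 lay above 0. The combination stood at 9201 CPM (log2 0.03), with 6 higher and 8 lower (background 25.1% and 20.8%). Against docetaxel, the combination had 0 of 85 higher and 8 lower (10.4% and 19.3%), and against ORIN1001 33 higher and 2 lower (34.9% and 17.3%), or 20 higher with median-of-ratios scaling (23.5%). Docetaxel against vehicle and the combination against ORIN1001 share no library, and 10 of 85 members were higher in both, against 17.7% of all genes. ORIN1001 against vehicle and the combination against docetaxel share none either, and 2 of 85 members were lower in both, against 4.80% of all genes. All remaining pairs of these comparisons share a library, so their counts are not separate evidence.

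Macrophage markers in the neutrophil class were likewise lowest with ORIN1001 and higher in both docetaxel-containing libraries, the 10 of them summing to 611, 423, 774 and 818 CPM. Without the cells that held 2 or more macrophage marker UMIs, which kept 50.1%, 61.0%, 45.3% and 50.9% of neutrophils and left 185, 131, 232 and 260 CPM of these markers, 31 of 84 members were lower with ORIN1001 (17.1% of all genes in these cells) and 24 higher with docetaxel (30.1%). The median UMIs of a neutrophil were 2901, 3471, 2523.5 and 2199, and with every cell weighted equally 32 of 85 members were lower with ORIN1001 (18.5% of all genes) and 6 higher with docetaxel (20.4%).

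**Figure D3:**
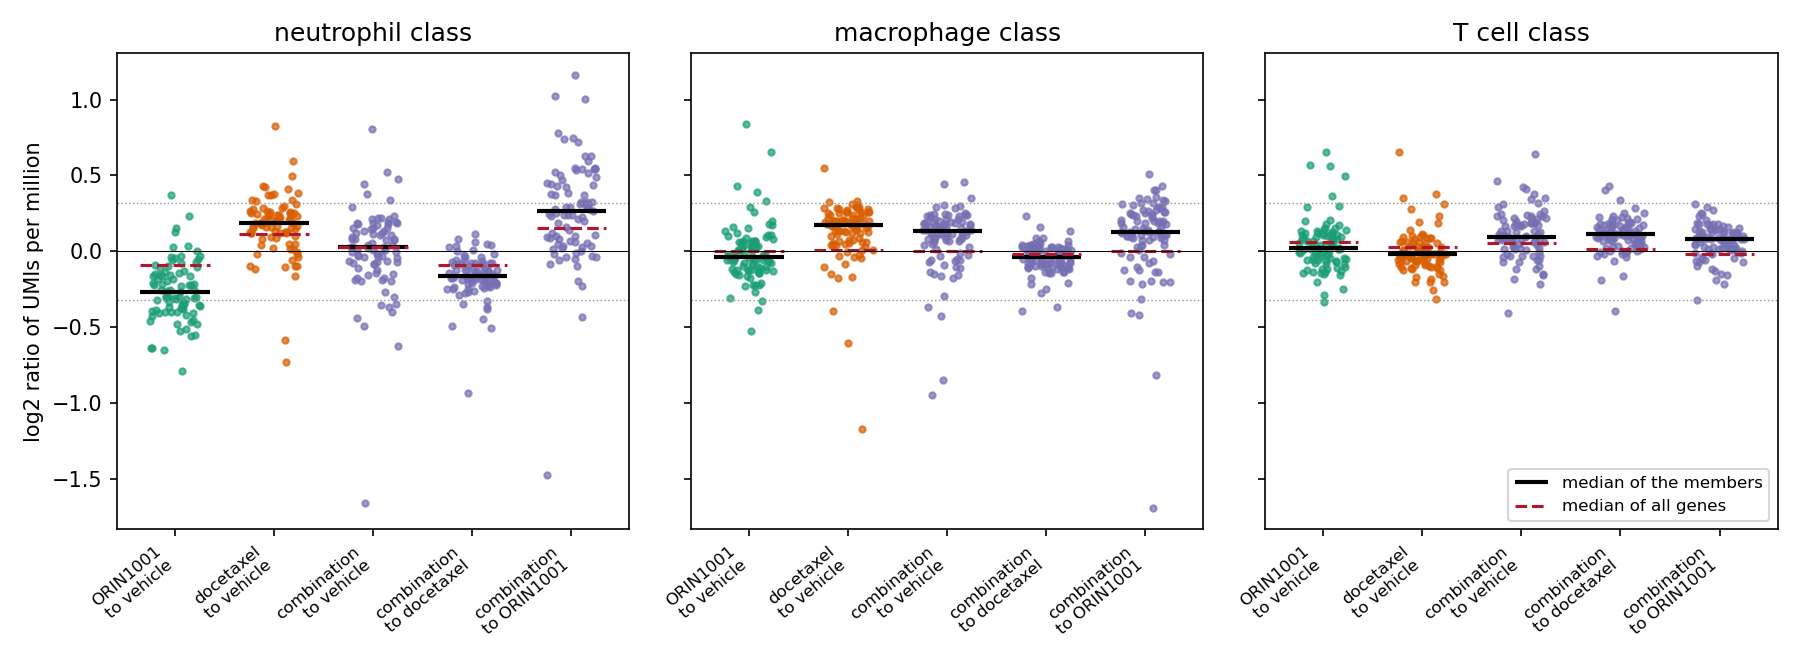
Log2 ratio of CPM of each member with at least 100 UMIs in 5 comparisons of libraries within the neutrophil, macrophage and T cell classes; black bars are the medians of the members, dashed bars those of all genes, and dotted lines mark the fold used for counting. In neutrophils the members' median was -0.26 for ORIN1001 and 0.19 for docetaxel against vehicle, whereas in T cells it lay between -0.02 and 0.11.

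Neutrophils that carried hypoxia transcripts were far fewer in both docetaxel-containing libraries, and these cells differed from other neutrophils in the members. Each cell was thinned to 1000 UMIs, and cells with 2 or more UMIs of Hilpda, Bnip3, Adm and Ero1l, all known to be induced by low oxygen, made up 44.0%, 43.2%, 23.1% and 5.51% of the thinned neutrophils (65.2%, 65.9%, 39.2% and 13.6% without thinning). Between 137 and 168 neutrophils a library were too shallow to thin. In the neutrophils with 2 or more hypoxia UMIs the summed members stood at 7615, 6827, 8146 and 8355 CPM. Neutrophils with 0 such UMIs stood at 11032, 9583, 11028 and 9235 CPM. The level was lower in the hypoxia cells in all 4 libraries.

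In edgeR's test of the 2 kinds of neutrophils, with the libraries as blocks, 22 of 85 members were lower in the hypoxia cells and 1 was higher, against 12.1% and 18.9% of all genes, with a median log2 fold change of -0.22 against -0.03. Complex I held 12 of the 22, complex V 4, complex III 3, complex IV 2 and complex II 1. Ndufa8, an accessory complex I subunit, was lower by a log2 fold change of -0.70 (SE 0.13, adjusted p = 0.000271), Atp5f1, of the ATP synthase stalk, by -0.60, and Uqcrc1 by -0.58. All 16 tested glycolysis enzymes were higher (median 1.88), while of 12 subunits encoded in mitochondrial DNA 1 was higher and 0 lower. Cycs, which is not a member, was higher in the hypoxia cells by a log2 fold change of 1.42 (edgeR adjusted p = 5.86e-08). The count of 22 was 8 without the vehicle library (4.84% of all genes), 7 without ORIN1001 (5.07%), 36 without the combination (17.7%) and 11 with DESeq2 (5.63%). Without TMM scaling, which moved the median of all genes to -0.34, it was 66 (37.8% of all genes).

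The 1 member that was higher was Ndufv3, an accessory subunit at the NADH-oxidising end of complex I (mm10 chr17:31520115-31531331, plus strand). It had 239, 247, 214 and 140 CPM in the hypoxia neutrophils and 145, 110, 80.9 and 54.7 CPM in those with 0 such UMIs, a log2 fold change of 1.41 (SE 0.12, edgeR adjusted p = 1.52e-08). Every library showed the difference, and the combination was lowest in both kinds of cells. In all neutrophils together Ndufv3 had 188, 165, 113 and 59.5 CPM, a log2 ratio of -0.73 (-0.82 to -0.64) for docetaxel and -1.66 (-1.80 to -1.52) for the combination against vehicle. In macrophages it had 285, 318, 276 and 256 CPM and in T cells 252, 259, 234 and 228 CPM, where the 4 libraries lay close together.

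Within the neutrophils with 0 hypoxia UMIs, an alternative chosen after seeing the data, the libraries were ordered otherwise. Docetaxel stood level with vehicle in the summed members (log2 -0.00), with 6 of 78 members higher and 5 lower (17% and 13.7% of all genes). ORIN1001 stood lower than vehicle (log2 -0.20, 33 of 76 members lower and 0 higher against 15.8% and 11% of all genes) and the combination lower than docetaxel (log2 -0.26, 28 of 78 lower and 1 higher against 21.8% and 9.26%). These last 2 comparisons share no library. The combination also had 34 of 76 lower and 1 higher than vehicle (29.5% and 19.3%), and 10 of 77 lower and 4 higher than ORIN1001 (22.4% and 19.9%). Glycolysis enzymes still differed among these cells, at 9860, 9262, 7056 and 5548 CPM, so cells with 0 of 1000 UMIs were not alike in this respect. In the hypoxia neutrophils, 23 of 70 members were lower and 1 higher with ORIN1001 than with vehicle (13.7% and 10.8% of all genes), and the combination, with 172 such cells, had 16 of 54 higher and 8 lower than vehicle (31.4% and 27.2%). In these cells the combination was not lower than docetaxel in the summed members (log2 0.037), with 4 of 26 members higher and 5 lower (22.6% and 24.3%). Against ORIN1001 it had 28 of 50 higher and 3 lower (33.6% and 27.1%), and docetaxel had 5 of 63 higher and 5 lower than vehicle (20.3% and 12.1%).

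**Figure D4:**
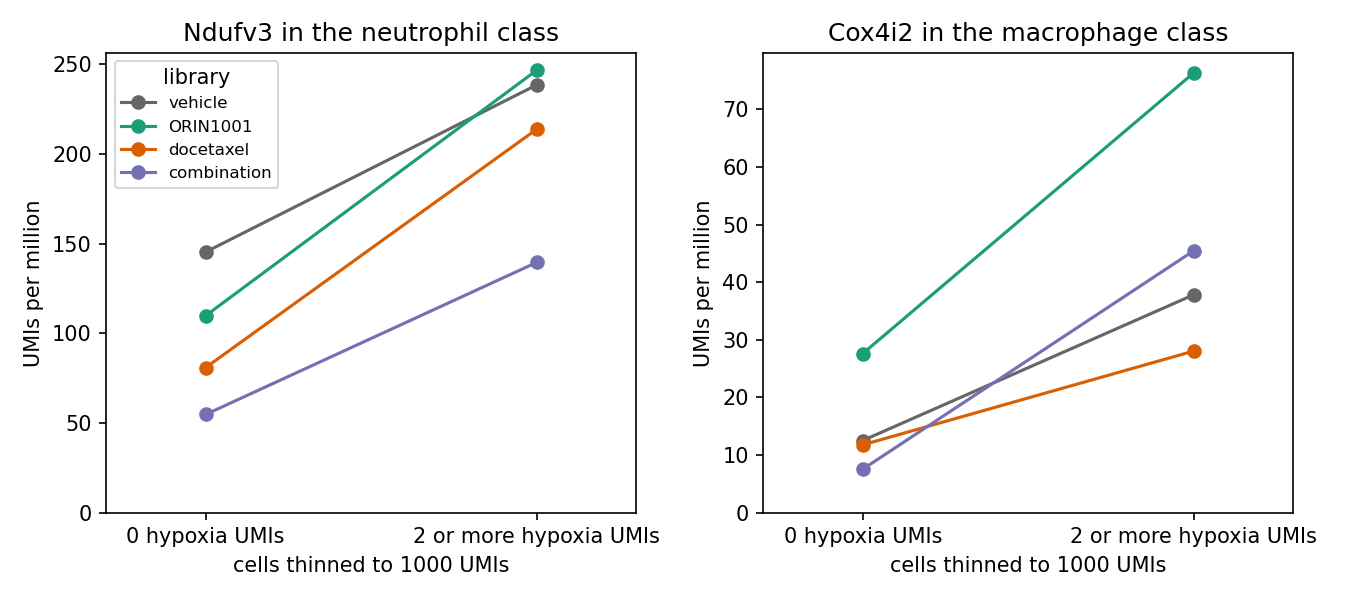
Level, in CPM, of Ndufv3 in neutrophils (left) and Cox4i2 in macrophages (right) in cells with 0 and with 2 or more hypoxia UMIs after thinning to 1000 UMIs; each line is 1 library. All 8 lines climb, from 54.7 to 145 up to 140 to 247 for Ndufv3 and from 7.53 to 27.6 up to 28 to 76.3 for Cox4i2. The Cox4i2 levels in hypoxia macrophages rest on few UMIs, from 238, 131, 107 and 44 cells.

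Immature neutrophils, marked by 2 or more UMIs of the granule genes Ngp, Camp, Ltf and Cebpe, were only 22, 48, 34 and 22 cells. edgeR called 0 of 83 members higher or lower in them (0.305% and 0.45% of all genes). At unadjusted p under 0.05, 0 were higher and 11 lower, and DESeq2 called 0, with 1 at unadjusted p under 0.05. In the same comparison edgeR called 21 of 6883 genes higher and 31 lower.

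In macrophages the summed members differed less from vehicle than in neutrophils with ORIN1001, but not with the combination. The summed level was 22678, 22588, 25070 and 24435 CPM, a log2 ratio of -0.01 for ORIN1001, 0.14 for docetaxel and 0.11 for the combination against vehicle. With docetaxel 3 of 92 were higher and 3 lower (8.1% and 10.7% of all genes), while 79 lay above 0, with a median of 0.17 against 0.01 for all genes. With ORIN1001 5 were higher and 3 lower (11.1% and 9.13%), and with the combination 3 higher and 4 lower (11.9% and 15.3%). The combination had 0 higher and 2 lower than docetaxel (7.98% and 8.71%) and 9 higher and 4 lower than ORIN1001 (13.3% and 16.3%). Among macrophages with 1500 to 6000 UMIs, 20 of 72 members were higher with docetaxel (21.2% of all genes) and 18 of 74 with ORIN1001 (11.4%). Without cycling cells, 10 of 92 were higher with docetaxel (10.4%), and 22 of 91 in the combination than with ORIN1001 (15.7%). The subunits encoded in mitochondrial DNA were not ordered like the members, at 21397, 24690, 19898 and 20784 CPM, highest with ORIN1001 and lowest with docetaxel. Neutrophil markers summed to 366, 1060, 153 and 73.6 CPM in the macrophage class, and their part in these differences was not tested.

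Sdhb, the iron-sulfur subunit of complex II (mm10 chr4:140961203-140979193, plus strand), had 218, 210, 267 and 299 CPM in macrophages, a log2 ratio of 0.46 (0.42 to 0.50) for the combination against vehicle. It was also highest in the combination in T cells, at 214, 204, 200 and 253 CPM, and in monocytes, at 191, 207, 217 and 260 CPM. In neutrophils it was not, at 96.1, 85.8, 96 and 84.1 CPM. Cox7a2l, a gene linked to supercomplexes of complexes III and IV, had 228, 234, 174 and 176 CPM in macrophages (-0.39, -0.44 to -0.35, for docetaxel). Both docetaxel-containing libraries were low for it.

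The hypoxia-linked Cox4i2 stood highest with ORIN1001 in macrophages (log2 0.84, 0.67 to 1.01) and lower than vehicle with docetaxel (-0.60, -0.79 to -0.41) and the combination (-0.85, -1.07 to -0.63). Macrophages with 2 or more hypoxia UMIs made up 11.0%, 13.4%, 7.0% and 3.13% of thinned macrophages (70.5%, 74.8%, 70.9% and 56.4% without thinning). Cox4i2 had 37.8, 76.3, 28 and 45.5 CPM in them and 12.5, 27.6, 11.8 and 7.53 CPM in macrophages with 0, a log2 fold change of 1.68 (SE 0.39, edgeR adjusted p = 0.00276). ORIN1001 was the highest library in both kinds of macrophages. Cox6b2, an isoform of a complex IV subunit best known from testis, stood at 5.56, 3.86, 2.46 and 2.89 CPM.

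Across members, the hypoxia macrophages had 10 of 85 lower and 2 higher than the rest by edgeR (3.69% and 8.21% of all genes), with a median of -0.20 against -0.02. The 2 higher ones were Cox4i2 and Ndufv3 (log2 0.40, adjusted p = 0.0424). Atp5g1 (-0.68), Ndufa12 (-0.81) and Ndufa5 (-0.77), accessory subunits of complex I except the first, were among the lower ones, as was Sdhb (-0.54, adjusted p = 0.0271). Ndufa5 had 46.2, 76.3, 84.1 and 22.7 CPM in the hypoxia macrophages. Its level in the combination came from 44 cells of 1000 UMIs, and so from few UMIs. Cycs, which is not a member, was also lower in the hypoxia macrophages (log2 -0.82, edgeR adjusted p = 0.00073). The count of 10 lower was 3 without the vehicle library (1.17% of all genes), 4 without ORIN1001 (1.97%) and 1 with DESeq2 (0.811%). Without TMM scaling, which moved the median of all genes to -0.14, it was 21 (7.60% of all genes).

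Within macrophages with 0 hypoxia UMIs, an alternative chosen after seeing the data, docetaxel had 14 of 80 members higher and 1 lower than vehicle (14.6% and 12.3% of all genes). ORIN1001 had 11 of 77 higher and 2 lower (11.1% and 15%), and the combination 7 of 78 higher and 2 lower (16.2% and 15.6%). Against docetaxel the combination had 0 of 77 higher and 1 lower (11.3% and 11.4%), and against ORIN1001 4 of 77 higher and 2 lower (19.6% and 11.4%).

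Cycling macrophages, with 2 or more UMIs of 8 cell cycle genes after thinning, were 10.8%, 9.48%, 11.2% and 11.0% of the thinned class (40.5%, 41.7%, 51.3% and 46.0% without thinning). By edgeR 12 of 85 members were higher in them and 0 lower (2 lower at unadjusted p under 0.05; DESeq2 0), against 8.82% and 8.05% of all genes, with a median of 0.14 against -0.03. Complex V gave 6 of the 12, among them Atp5a1 (0.28), Atp5b (0.24) and the c ring genes Atp5g1 (0.31), Atp5g2 (0.25) and Atp5g3 (0.31). Ndufb11, an accessory subunit of the membrane arm of complex I, had the largest, 0.52 (SE 0.13, adjusted p = 0.00176). Of 85 members, 3 were higher without the vehicle library (6.23% of all genes), 6 without docetaxel (7.50%), 2 with DESeq2 (4.63%) and 1 without the library block (5.97%). In these settings the members' share was below that of all genes. The share was above that of all genes without ORIN1001 (9 of 86, 6.68% of all genes) and without the combination (8 of 85, 7.31%).

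In T cells the members stood nearly level between libraries. The summed log2 ratio to vehicle was 0.02 with ORIN1001, -0.01 with docetaxel and 0.09 with the combination. ORIN1001 had 5 of 88 members higher and 1 lower (14.8% and 8.02% of all genes), docetaxel 3 and 0 (14.4% and 8.83%), and the combination 7 of 89 higher and 1 lower (16.6% and 11.9%). Against docetaxel the combination had 3 of 89 higher and 1 lower (7.53% and 10.4%), and against ORIN1001 0 and 0 (6.62% and 10.5%). Each of these shares was below that of all genes.

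A pair of small members was lowest in the vehicle library in neutrophils, macrophages and T cells alike. Atp5k, the e subunit in the membrane part of ATP synthase (mm10 chr5:108433244-108434448, minus strand), had 30.5, 39.5, 40.9 and 42.3 CPM in neutrophils, 81.1, 128, 119 and 110 CPM in macrophages and 80.5, 119, 103 and 102 CPM in T cells. Its log2 ratio of ORIN1001 to vehicle was 0.37 (0.22 to 0.53) in neutrophils, 0.65 (0.58 to 0.73) in macrophages and 0.56 (0.41 to 0.72) in T cells. Ndufa3, an accessory complex I subunit, had 93.4, 110, 116 and 104 CPM, 166, 225, 201 and 205 CPM, and 174, 224, 205 and 207 CPM in the same classes. In NK cells Atp5k was lowest with docetaxel instead, at 91.1, 106, 88.4 and 96.4 CPM. With 1 library a group, a drug and a library preparation cannot be told apart.

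Sdhaf1, which helps to load iron-sulfur clusters into Sdhb (mm10 chr7:30321406-30323895, minus strand), had 47.0, 40.5, 83.3 and 82.2 CPM in neutrophils. Both docetaxel-containing libraries were high, with log2 ratios to vehicle of 0.83 (0.69 to 0.96) and 0.81 (0.65 to 0.96). In T cells the vehicle library alone was low, at 46.2, 72.7, 72.6 and 72.1 CPM, and in macrophages the 4 libraries stood at 35.9, 29.1, 32.3 and 31.8 CPM. The gene overlaps E130208F15Rik on the other strand. Of the 96 members, 30 overlap another counted gene, 1 of them, Ndufa13 with Yjefn3, on the same strand, where reads can be split between both genes.

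Other classes were compared between the combination and vehicle, again from single libraries. Conventional DCs (54 to 174 cells a library) had 17 of 83 members higher and 0 lower in the combination than with vehicle, with a median log2 ratio of 0.20, against 15% and 11% of all genes. Monocytes (128 to 242 cells) had 19 of 83 higher and 2 lower in that comparison (17.2% and 16.5% of all genes), with a median of 0.14. NK cells had 1 of 84 higher and 4 lower (20% and 9.73%).

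Among T cells split by single genes, CD8 T cells had 16 of 88 members higher and 0 lower in the combination than with vehicle (17.1% and 12.3% of all genes), with 78 above 0 and a median of 0.16. Gamma-delta T cells had 1 of 79 higher and 15 lower (18.6% and 14.7%), with 61 below 0 and a median of -0.11. CD8 T cells numbered 387 in vehicle and 1350 in the combination, and gamma-delta T cells 233 and 185. In CD8 T cells Sdhaf1 had 24.2, 40.5, 44.6 and 46.1 CPM, lowest with vehicle.

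**Figure D5:**
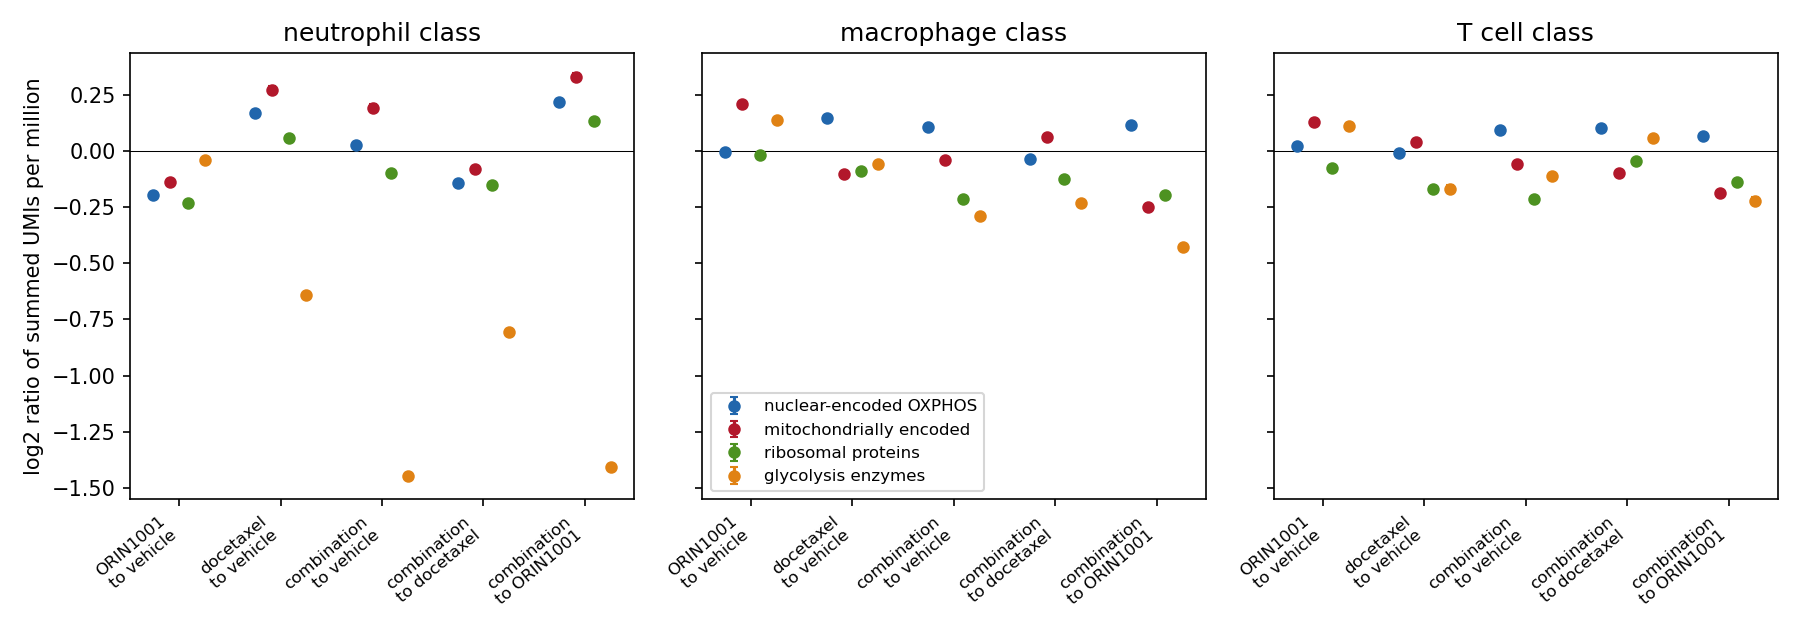
Log2 ratio of the summed CPM of 4 gene lists in 5 comparisons of libraries, in the neutrophil, macrophage and T cell classes; bars are 95% counting intervals, mostly smaller than the points. In neutrophils, the ratios farthest from 0 are those of glycolysis enzymes, at 18410, 17920, 11800 and 6750 CPM. Those of the nuclear-encoded members lie between -0.19 and 0.22. For ORIN1001 against vehicle the order is reversed, with glycolysis enzymes closer to 0 than the members (-0.19).

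Member promoters were searched for the letters read by NRF1, GABPA and YY1, known regulators of many OXPHOS genes, and those of 4 members described above are shown for comparison. RefSeq promoter windows (GRCm38.p6, 250 bases before to 50 after the start) were matched for 79 members, with 84 windows. The NRF1 letters, GCGCA and GCGC parted by any base, were found on either strand in 22 windows (26.2%, against 4.60% of 32851 windows of all genes), the ETS letters CCGGAAG, read by GABPA, in 22 (26.2% against 8.86%), and the YY1 letters AAGATGGCG in 8 (9.52% against 1.40%). At least 1 of the 3 was in 44 windows (52.4% against 13.6%), and no matches of different motifs overlapped. Member windows had a median GC content of 58.5% against 52.7% for all windows. A match describes letters only.

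The windows below are written 5′ to 3′ on the strand of the gene, with the matched letters in capitals, and run over chr5:108434350-108434649 for Atp5k (minus strand), chr4:140961021-140961320 for Sdhb (plus strand), chr7:30322326-30322625 for Sdhaf1 (minus strand) and chr17:31519865-31520164 for Ndufv3 (plus strand). Atp5k holds 1 NRF1 and 1 ETS match, Sdhb and Sdhaf1 hold 1 ETS match each, and Ndufv3 holds none of the 3.
Atp5k: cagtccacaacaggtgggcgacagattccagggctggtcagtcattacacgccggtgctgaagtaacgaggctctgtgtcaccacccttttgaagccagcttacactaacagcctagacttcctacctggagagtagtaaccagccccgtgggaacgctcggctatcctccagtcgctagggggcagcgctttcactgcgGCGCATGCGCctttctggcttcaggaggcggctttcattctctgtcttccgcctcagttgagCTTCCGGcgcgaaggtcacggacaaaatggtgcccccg
Sdhb: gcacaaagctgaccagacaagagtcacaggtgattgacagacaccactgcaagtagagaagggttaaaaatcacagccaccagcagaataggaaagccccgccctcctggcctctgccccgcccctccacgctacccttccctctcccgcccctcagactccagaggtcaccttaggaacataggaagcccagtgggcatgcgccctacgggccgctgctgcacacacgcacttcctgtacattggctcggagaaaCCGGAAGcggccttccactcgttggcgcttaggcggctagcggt
Sdhaf1: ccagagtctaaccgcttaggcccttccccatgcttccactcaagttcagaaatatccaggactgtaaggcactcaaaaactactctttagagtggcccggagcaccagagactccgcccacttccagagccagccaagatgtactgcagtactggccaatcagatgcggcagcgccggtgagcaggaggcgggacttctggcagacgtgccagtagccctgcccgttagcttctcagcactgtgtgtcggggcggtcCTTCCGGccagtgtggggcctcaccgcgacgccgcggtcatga
Ndufv3: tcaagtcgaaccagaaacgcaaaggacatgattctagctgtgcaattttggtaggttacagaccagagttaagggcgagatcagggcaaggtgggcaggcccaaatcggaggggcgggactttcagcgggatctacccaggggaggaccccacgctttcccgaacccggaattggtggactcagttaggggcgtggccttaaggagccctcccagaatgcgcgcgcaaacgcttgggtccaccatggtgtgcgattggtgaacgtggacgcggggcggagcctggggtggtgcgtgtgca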

How the data were processed

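Raw UMI counts per gene and barcode were deposited by the authors for barcodes called as cells by Cell Ranger 5.0.1, per the file headers. Per the submitters' processing notes, mm10 was the build and Seurat 4.0.1 was also used. The annotation release is not given in the sources used here. No other per-sample columns were left unused (0).

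Cells with at least 200 genes and under 10% mitochondrial UMIs were kept. Doublets were scored with Scrublet (scanpy 1.11.5), whose automatic cut marked 2.00%, 0%, 1.27% and 1.82% of the vehicle, ORIN1001, docetaxel and combination cells. The top-scoring 0.8% per 1000 cells were removed in every library. A cell was gated to the class with the highest marker score if it had at least 3 of that class's markers and a score 25% above the next. The 1280 cells that did not were left out, and 1268 cells lay within 1.5 times of the next score.

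For each class of each library the UMIs were added up and scaled to CPM. Ratios between libraries carry exact 95% Poisson intervals. A count of 0 was set to 3. Classes and states were tested with edgeR 4.0.16 (TMM, filterByExpr, library block, R 4.3.3), with DESeq2 1.42.0 as an alternative, after a check on simulated counts. States used cells thinned to 1000 UMIs, compared with cells holding 0 UMIs of the state.

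Named genes were the core subunits, the isoform groups, and in each comparison the 3 members with the largest difference in each direction whose interval excluded 0 or whose adjusted p was under 0.05. Not every gene that the rule picks is reported here. The members, lists and this rule were chosen with earlier results of these data known. Coordinates are GENCODE gene spans on mm10.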

Additional observations from a re-analysis of the deposited data

Results flagged for a closer look

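In 3 comparisons the ratio of the summed members had the opposite sign in T cells to that in neutrophils and macrophages, although several of these ratios were close to 0. These differences were not tested, since each is a ratio of 1 library to 1 library. For ORIN1001 against vehicle the log2 ratio of the summed CPM was -0.19 in neutrophils and -0.0057 in macrophages, and 0.023 in T cells. For docetaxel against vehicle it was 0.17 in neutrophils and 0.14 in macrophages, and -0.011 in T cells. For the combination against docetaxel it was -0.14 in neutrophils and -0.037 in macrophages, and 0.10 in T cells. The ratios of the last comparison share the docetaxel library with the second.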

How the results depend on the processing

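Between drug groups, no paired analysis was possible because each had 1 library, whereas the class and state tests paired sums within a library. Leaving out 1 library at a time, the members called higher in macrophages than in neutrophils numbered 76 to 80 (41.2% to 44.3% of all genes). Those higher in T cells than in neutrophils numbered 58 to 62 (40.5% to 42.7%), and those lower in T cells than in macrophages 64 to 68 (34.5% to 34.6%). Lower in hypoxia neutrophils were 7 to 36 (4.84% to 17.7%), higher in cycling macrophages 3 to 9 (6.23% to 7.50%), and lower in hypoxia macrophages 3 to 7 (1.17% to 3.63%). Without the library as a block the last 3 counts were 9 (4.17% of all genes), 1 (5.97%) and 4 (1.87%). With DESeq2 they were 11 (5.63%), 2 (4.63%) and 1 (0.811%), and without TMM scaling 66 (37.8%), 21 (11.3%) and 21 (7.60%). Without a filter on low counts they were 1 for cycling (3.29%) and 17 for hypoxia macrophages (2.64%), and thinned to 2000 UMIs 29 (14.0%) and 18 (7.55%). With at least 3 UMIs of the state the count was 3 for cycling (5.80%).

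Without TMM scaling, T cells had 25 members lower than macrophages, and these log2 fold changes changed sign. Against neutrophils, macrophages had 0.19 for Ndufb9, 0.42 for Cox7a2 and 0.31 for Cox8a. T cells against neutrophils had 0.11 for Sdhaf1, 0.12 for Ndufb9, 0.66 for Ndufs7, 0.68 for Sdhd, 0.71 for Cox5b, 0.43 for Cox6b1, 0.45 for Cox7a2 and 0.25 for Cox8a. T cells against macrophages had 0.027 for Ndufv1 and Cox7a2, 0.010 for Ndufv2, 0.012 for Atp5b, 0.19 for Sdha, 0.29 for Uqcrfs1, 0.20 for Uqcrc2 and 0.060 for Atp5c1. Hypoxia neutrophils had -0.25 for Cox8a.

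Between libraries, median-of-ratios scaling left in neutrophils 15 members lower with ORIN1001, 3 higher with docetaxel, 4 lower in the combination than with docetaxel and 20 higher than with ORIN1001. In macrophages it left 1 higher with docetaxel, and in T cells 4 higher in the combination than with vehicle and 1 than with ORIN1001. At 1.5-fold, the neutrophil counts were 4 lower with ORIN1001, 2 higher with docetaxel, and in the combination 2 lower than vehicle, 1 lower than docetaxel and 10 higher than ORIN1001. The macrophage counts were then 2 higher with ORIN1001, 0 with docetaxel, and in the combination 2 lower than vehicle, 0 lower than docetaxel and 0 higher than ORIN1001. In T cells 1 was then higher than vehicle in each treated library and 0 higher in the combination than with docetaxel. No share of all genes is given at 1.5-fold, so these counts cannot be placed above or below the background.

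With cells of 1500 to 6000 UMIs, 5 members were higher with docetaxel in neutrophils. In macrophages 18 were higher with ORIN1001, 20 with docetaxel, 8 lower in the combination than with docetaxel and 4 higher than with ORIN1001. In T cells 2 were higher with ORIN1001, 4 in the combination than with vehicle and 4 than with ORIN1001. With every cell weighted equally, 6 neutrophil and 5 macrophage members were higher with docetaxel, and in the T cell combination 4 were higher than vehicle, 1 than docetaxel and 1 than ORIN1001. With abundant genes left out of the total, 6 neutrophil and 1 macrophage members were higher with docetaxel, and 4 in the macrophage combination than with ORIN1001.

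With at least 1000 UMIs, neutrophils had 8 higher with docetaxel and in the combination 4 lower than vehicle and 2 than docetaxel. Macrophages then had 1 lower in the combination than vehicle and 1 than docetaxel, and T cells 2, 1 and 4 higher with ORIN1001, docetaxel and the combination. With at least 30 UMIs, 5 were higher with docetaxel in T cells. Classes from clusters gave 5 lower in the neutrophil combination than with docetaxel. Keeping doublets gave 1 higher in the T cell combination than with ORIN1001. Without cells holding macrophage marker UMIs, an alternative chosen after seeing the data, 24 were higher with docetaxel in neutrophils, and in the T cell combination 3 than vehicle and 1 than ORIN1001. Without cycling cells, 10 macrophage members were higher with docetaxel and 22 in the combination than with ORIN1001, 1 was higher in the T cell combination than with docetaxel and 1 than with ORIN1001, and Ndufaf2 went to -0.014 in T cells (combination to docetaxel). With 0 hypoxia UMIs, also chosen after seeing the data, neutrophils had 6 higher with docetaxel and in the combination 34 lower than vehicle, 28 lower than docetaxel and 4 higher than ORIN1001. Macrophages then had 11 higher with ORIN1001, 14 with docetaxel, and in the combination 2 lower than vehicle, 1 lower than docetaxel and 4 higher than ORIN1001. The ratios of the summed members moved past their counting interval in 133 alternative values and did not in 117. The causes of these changes were not tested. Counts in this section without a share of all genes show only how far the count moved, since the genes tested can change with the setting. Such counts cannot be placed above or below the background. Counting error limits members with few UMIs, and the spread between animals is not measured.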

Other observations

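Cells gated as epithelial or tumour, which a CD45+ sort should leave out, numbered 84, 14, 25 and 69 after filtering. Their summed members stood at 45808, 40669, 40914 and 45417 CPM, above each class of immune cells described here. The ORIN1001 and docetaxel libraries fell under the minimum of 50 cells a library that those classes met.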
